A study of Mus musculus with 9 samples.

Results

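The genes described here are 10 that are commonly used to mark effector and memory T cells. From the S100, annexin and galectin families they are S100a4, S100a6, S100a10, S100a11, Anxa1, Anxa2, Lgals1 and Lgals3. Ahnak encodes a partner of annexin A2 and S100A10, and Crip1 belongs to none of these families. The 10 genes were picked by gene symbol from a table of 39253 genes, and all 10 were found, each on a single row. RNA was sequenced from CD4+ T cells of mice on day 9 of experimental autoimmune encephalomyelitis (EAE), an induced attack on the central nervous system that serves as a model of multiple sclerosis. There were 5 libraries labelled ERα KO, a knockout of estrogen receptor alpha (called KO here), and 4 labelled wildtype. The labels place KO replicates 1, 2 and 3 with wildtype replicates 1 and 2 in batch 1, and KO replicates 4 and 5 with wildtype replicates 3 and 4 in batch 2. The series title speaks of ERα in dendritic cells, while the sequenced cells were CD4+ T cells. The sources used here do not state in which cells the knockout acts, its allele, the strain, sex or age of the mice, the tissue of the T cells, or whether libraries come from separate animals, so the p-values measure the spread between these libraries.

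S100 proteins are small proteins, most of them calcium-binding, that work as dimers and change the shape and activity of the proteins they hold. Annexins bind membranes in the presence of calcium, and galectins bind sugars on glycoproteins at the cell surface. In T cells these transcripts are typically low in naive cells and higher in antigen-experienced ones that move into tissue. Most of them are also abundant in macrophages and other myeloid cells, so they do not mark T cells as such.

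The S100 genes lie in a cluster on mouse chromosome 3. In the gene order of the RefSeq table, S100a11 and S100a10 are adjacent coding genes, and S100a4 and S100a6 are separated by 1 coding gene, S100a5. Because ERα is a DNA-binding receptor, the 250 bases before the start of each gene were read from RefSeq promoter sequences of build GRCm38.p6, which held 8 of the 10 genes. Lgals1 and S100a10 were the other two. The 4 windows printed are those with at least 1 match to the letters searched, and they are written 5′ to 3′ with the matches in capitals. The order is S100a4 at chr3:90603520-90603769 on the plus strand, S100a11 at chr3:93520246-93520495 on the plus strand, Anxa1 at chr19:20390672-20390921 on the minus strand, and Anxa2 at chr9:69453433-69453682 on the plus strand.
S100a4: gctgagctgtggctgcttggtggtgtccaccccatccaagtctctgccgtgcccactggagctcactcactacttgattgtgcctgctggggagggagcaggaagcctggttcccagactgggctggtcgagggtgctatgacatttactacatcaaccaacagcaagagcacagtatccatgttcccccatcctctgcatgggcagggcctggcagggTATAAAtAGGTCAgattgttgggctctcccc
S100a11: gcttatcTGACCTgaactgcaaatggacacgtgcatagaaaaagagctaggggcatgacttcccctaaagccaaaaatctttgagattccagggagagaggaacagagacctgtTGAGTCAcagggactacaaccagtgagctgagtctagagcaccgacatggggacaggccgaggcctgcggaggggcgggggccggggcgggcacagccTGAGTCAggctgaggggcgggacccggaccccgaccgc
Anxa1: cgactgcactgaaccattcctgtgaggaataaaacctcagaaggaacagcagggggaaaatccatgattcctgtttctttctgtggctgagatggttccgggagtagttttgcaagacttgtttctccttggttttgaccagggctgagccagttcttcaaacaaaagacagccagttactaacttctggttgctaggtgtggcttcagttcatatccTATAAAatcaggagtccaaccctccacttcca
Anxa2: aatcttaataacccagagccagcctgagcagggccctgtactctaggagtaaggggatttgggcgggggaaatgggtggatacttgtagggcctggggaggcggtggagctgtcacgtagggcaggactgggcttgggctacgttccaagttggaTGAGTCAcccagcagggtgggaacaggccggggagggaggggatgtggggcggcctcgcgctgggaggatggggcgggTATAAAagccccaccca
The full estrogen response element, GGTCA and TGACC with 3 free bases between them (the same on both strands), was in 0 of the 8 windows and in 0.0639% of 32851 windows of all genes. A single arm with 1 more base at its outer end, AGGTCA or TGACCT, was in 2 of 8 windows (S100a4 and S100a11) and in 14% of all windows. In S100a4 it lies from 24 to 19 bases before the start, next to a TATA box, TATAAA or TTTATA, from 31 to 26 bases before the start. The TATA box was in 3 of 8 windows (S100a4, Anxa1 and Anxa2), against 12.4% of all windows. The AP-1 letters TGANTCA were in 2 of 8 windows (S100a11, which holds them at 2 places, and Anxa2), against 6.75% of all windows. The matches are a description of the sequence, and missing letters say nothing of the factors outside these windows.

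Batch 1 libraries held 4926347 to 11296593 counts each and batch 2 libraries 45013017 to 69844721, and all 10 genes had counts in all 9 libraries. A floor of 3 counts corresponds to 0.0430 to 0.609 CPM (a count scaled by its library total to the usual common size). Each value of the 10 genes lay above it, but the floor covers counting error only. Esr1, which encodes ERα, stood at 0.143 and 0.256 CPM in KO and 1.45 and 1.69 CPM in wildtype libraries of batch 2. In batch 1 it stood at 6.31 to 13.02 CPM in KO and at 4.87 and 16.2 CPM in wildtype libraries, so it does not check the genotype labels there. The batch 1 libraries held 0.0574% to 0.255% of their counts in 1508 sensory receptor genes, against at most 0.0037% in batch 2. Counts were found in 32046 to 34085 genes per library in batch 1 and in 17008 to 18309 in the deeper batch 2. The floor does not cover such counts, and their part in the 10 genes was not tested. The lowest value of the 10 genes was Lgals3 in wildtype replicate 2, at 6.50 CPM (32 counts), below Esr1 in that library. KO replicate 3 stood apart in batch 1, with 30.4 CPM of Xist and 55.4 CPM of the Y-linked Ddx3y, while the other 4 libraries of that batch had 1745 to 2680 CPM of Xist and 0 counts of Ddx3y. In batch 2 Xist was at most 0.289 CPM and Ddx3y 93.6 to 107 CPM. The labelled cell type was checked with 10 T cell markers, Cd4 and genes that other T cells also carry, all detected in every library. Their summed level in batch 1 was 3649 to 3930 CPM in KO and 4073 and 4396 CPM in wildtype libraries. In batch 2 it was 5227 and 5241 CPM in KO and 4559 and 4951 CPM in wildtype libraries. The KO sums thus lay below the wildtype sums in batch 1 and above them in batch 2. Cd4 itself stood at 925 to 1321 CPM, and the CD8 markers Cd8a and Cd8b1 together at 9.71 to 18.9 CPM.

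In batch 2, the mean CPM of all 10 genes was lower in KO than in wildtype libraries, with KO to wildtype ratios of 0.373 (Lgals3) to 0.935 (S100a10), and the genotypes overlapped for 8 of the 10. In batch 1, the mean was higher in KO libraries for 9 of the 10, with ratios of 0.990 (S100a10) to 1.53 (Lgals3), and the genotypes overlapped for all 10. The share of all genes with a higher or lower mean CPM in KO was not counted. The edgeR fit scales the libraries further. Its log2 fold changes were negative for 5 of the 10 in batch 1, where 46.2% of all tested genes were negative. In batch 2 they were negative for 10 of 10, against 52.2% of all tested genes. No gene of the 10 passed edgeR's quasi-likelihood test (adjusted p below 0.05 over all genes) in batch 1, in batch 2 or over both batches. The share of all tested genes that passed was 0.126% in batch 1, 0% in batch 2 and 0.00451% over both. At an unadjusted p under 0.05, edgeR counted 0 of the 10 in batch 1 and over both batches (backgrounds 1.97% and 2.36%), while limma-voom counted 1 over both batches and 0 in batch 1 (4.91% and 2.66% of all genes), and DESeq2 0 in each (3.76% and 1.77%). In batch 2 edgeR counted 2 of the 10, both lower in KO, where 7.77% of all tested genes were counted and 4.97% were lower. DESeq2 counted 5 of the 10 in batch 2 (10.5% of all genes) and limma-voom 2 (7.4%).

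**Figure D1:**
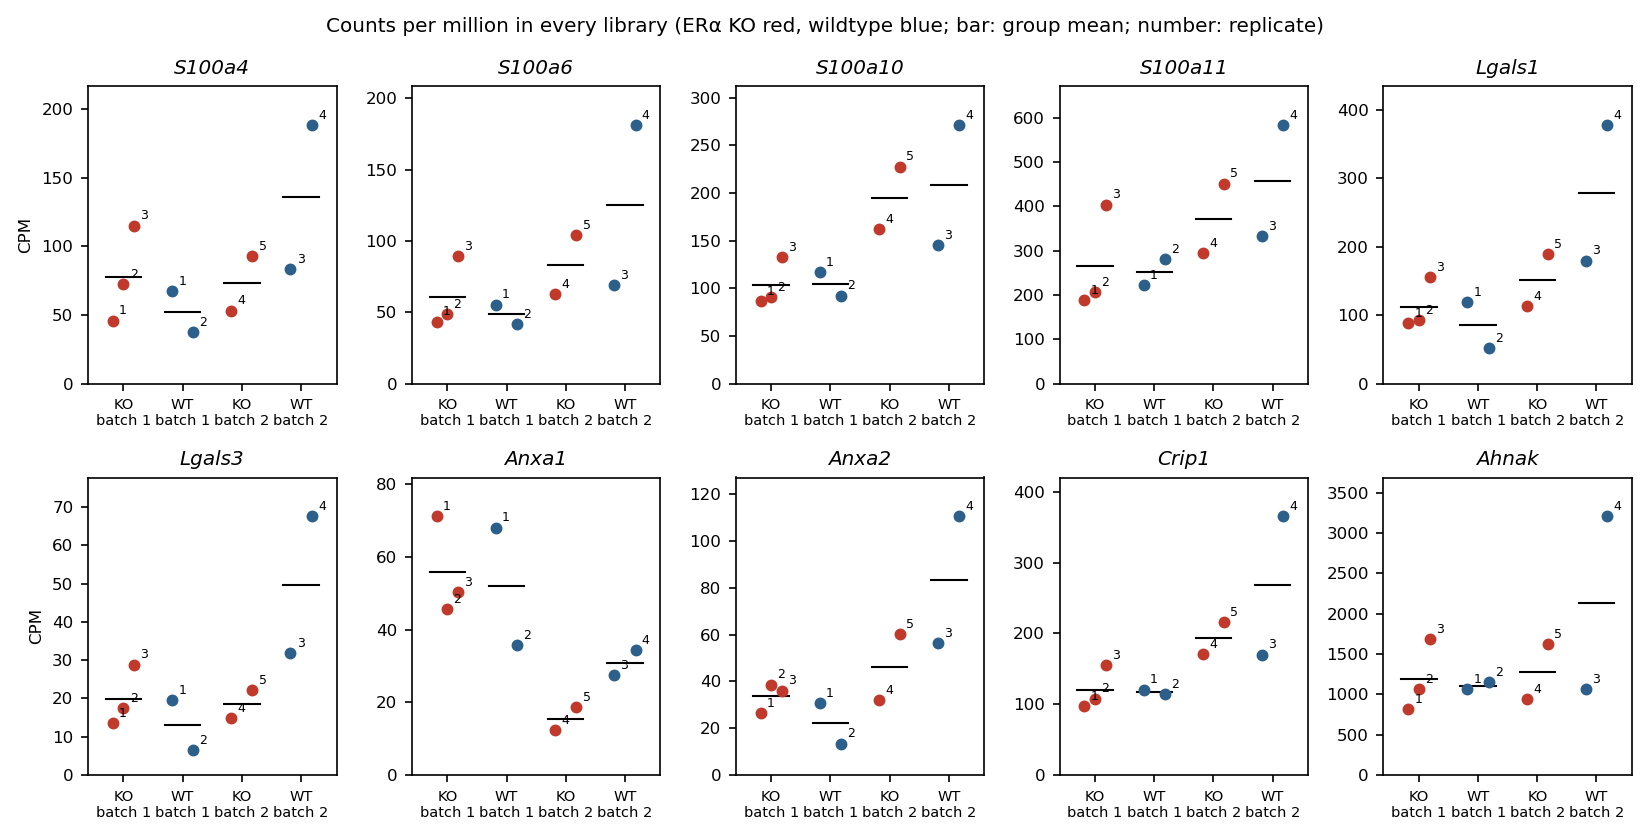
CPM (linear axis) of each of the 10 genes in every library, with KO left of wildtype in each batch, points for libraries numbered by replicate, and a bar at the group mean. Wildtype replicate 4 was the highest library of batch 2 for all 10 genes, and the genotypes of batch 2 separated for Lgals3 and Anxa1. The share of all genes highest in that library was not counted. Of all genes tested in batch 2, 20.5% had every KO library below every wildtype library.

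The galectins bind galactose-bearing sugars. Galectin-1, encoded by Lgals1, restrains effector T cells, and galectin-3, encoded by Lgals3, crosslinks surface glycoproteins and is also a marker of activated macrophages. Lgals3 had 14.9 and 22.2 CPM in KO replicates 4 and 5, against 31.8 and 67.6 CPM in wildtype replicates 3 and 4. Every KO library of batch 2 thus lay below every wildtype library, at 18.5 ± 5.13 CPM against 49.7 ± 25.3 CPM (SD, n = 2 each). The log2 fold change in batch 2 was -1.40 ± 0.41 (SE, edgeR adjusted p = 0.625). In batch 1 the order was not kept: Lgals3 had 13.6, 17.6 and 28.8 CPM in KO replicates 1 to 3, against 19.6 and 6.50 CPM in wildtype replicates 1 and 2. The wildtype libraries of batch 1 spanned the widest relative range of any of the 10 genes, 3.01-fold. The fold change there was 0.31 ± 0.41, and over both batches -0.44 ± 0.51 (edgeR adjusted p = 1.00 for each).

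Lgals1 had 113 and 189 CPM in KO replicates 4 and 5, against 179 and 378 CPM in wildtype replicates 3 and 4, so KO replicate 5 and wildtype replicate 3 overlapped. The log2 fold change in batch 2 was -0.87 ± 0.46 (edgeR adjusted p = 0.719). In batch 1 it had 88.3, 92.7 and 155 CPM in KO libraries, against 119 and 52.0 CPM in wildtype libraries. The KO libraries there lay between and above the wildtype ones, with a fold change of 0.13 ± 0.39. Over both batches the fold change was -0.24 ± 0.38.

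Annexin A1, encoded by Anxa1, acts through formyl peptide receptors and is best known for limiting inflammation in myeloid cells. Anxa1 had 12.3 and 18.6 CPM in KO replicates 4 and 5, against 27.5 and 34.3 CPM in wildtype replicates 3 and 4. The genotypes did not overlap in batch 2, at 15.5 ± 4.42 CPM in KO and 30.9 ± 4.84 CPM in wildtype (SD, n = 2 each). Its log2 fold change in batch 2, -0.99 ± 0.24, had the smallest standard error of the 10 genes (edgeR adjusted p = 0.618). In batch 1 Anxa1 had 71.2, 45.7 and 50.3 CPM in KO libraries, against 68.1 and 35.7 CPM in wildtype libraries. The genotypes overlapped there, and the fold change was -0.08 ± 0.38. Anxa1 was also the only gene of the 10 with higher group means in batch 1 than in batch 2 for both genotypes. Over both batches it had -0.44 ± 0.28, the smallest unadjusted p of the 10 (edgeR adjusted p = 1.00).

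That 2 of 10 genes, Lgals3 and Anxa1, had every KO library below every wildtype library in batch 2 matches the share among all genes tested there, 20.5%. In the opposite direction the counts were 0 of 10 and 19.6%. In batch 1 no gene of the 10 separated, where 5.19% of all tested genes had every KO library below and 10.9% every KO library above every wildtype library. For Lgals3 and Anxa1 the difference between the batch 2 means exceeded the sum of both SDs, while for the other 8 it was below the larger SD. With 2 libraries per genotype these SDs come from the same values as the separation, so this is not a further result. The share of all genes with such a difference was not counted.

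Annexin A2 and S100A10 form a tight complex at the inner face of the plasma membrane, and AHNAK, a giant scaffold protein, is bound by that complex. Anxa2 had 32.0 and 60.2 CPM in KO replicates 4 and 5, against 56.5 and 111 CPM in wildtype replicates 3 and 4. Ahnak had 936 and 1626.5 CPM in KO, against 1064 and 3208 CPM in wildtype libraries of that batch. S100a10 had 162 and 228 CPM in KO, against 145 and 272 CPM in wildtype libraries. For each of the 3 genes the KO libraries of batch 2 overlapped the wildtype range, with wildtype replicate 4 on top. The log2 fold changes in batch 2 were -0.84 ± 0.46 for Anxa2, -0.71 ± 0.66 for Ahnak and -0.08 ± 0.34 for S100a10 (edgeR adjusted p = 0.727, 0.838 and 0.972). S100a10 therefore had the value nearest to 0 of the 10 genes, although its partner Anxa2 had one of the more negative values. Whether these fold changes differ between the partners was not tested. In batch 1 the KO libraries had 26.3, 38.7 and 36.1 CPM of Anxa2, against 30.9 and 13.4 CPM in wildtype. The KO libraries of batch 1 had 86.9, 90.9 and 133 CPM of S100a10, against 117 and 92.2 CPM in wildtype. Ahnak stood at 812, 1064 and 1687 CPM in KO libraries of batch 1, around 1060.3 and 1152 CPM in wildtype. All 3 genes overlapped between genotypes, with fold changes of 0.38 ± 0.38 for Anxa2, -0.22 ± 0.37 for S100a10 and -0.09 ± 0.36 for Ahnak. Over both batches they had -0.14 ± 0.39, -0.08 ± 0.19 and -0.31 ± 0.34.

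Of the other S100 genes, S100A4 binds non-muscle myosin and is tied to cell motility, and S100A6 and S100A11 bind annexins. S100a4 had 53.2 and 92.9 CPM in KO replicates 4 and 5, against 83.4 and 189 CPM in wildtype replicates 3 and 4. S100a6 had 62.6 and 104 CPM in KO, against 68.8 and 181 CPM in wildtype libraries of batch 2. S100a11 had 293 and 451 CPM in KO, against 332 and 584 CPM in wildtype libraries of batch 2. In each of the 3 genes KO replicate 5 lay above wildtype replicate 3 and KO replicate 4 lay below both wildtype libraries. The log2 fold changes in batch 2 were -0.88 ± 0.50 for S100a4, -0.56 ± 0.56 for S100a6 and -0.28 ± 0.34 for S100a11 (edgeR adjusted p = 0.735, 0.847 and 0.881). In batch 1 S100a4 had 45.8, 72.4 and 115 CPM in KO, against 67.2 and 37.6 CPM in wildtype libraries. S100a6 had 43.4, 48.5 and 89.2 CPM in KO, against 55.2 and 41.6 CPM in wildtype libraries. S100a11 had 188, 206 and 404 CPM in KO, against 223 and 281 CPM in wildtype libraries. KO replicate 3 was the highest library of batch 1 for all 3, and the genotypes overlapped. Their fold changes there were 0.31 ± 0.38, 0.08 ± 0.37 and -0.12 ± 0.37, and over both batches -0.16 ± 0.43, -0.14 ± 0.34 and -0.13 ± 0.24.

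Crip1 encodes a small zinc-binding LIM protein. It had 171 and 216 CPM in KO replicates 4 and 5, against 170.1 and 365 CPM in wildtype replicates 3 and 4. In batch 1 it had 97.0, 108 and 155 CPM in KO, against 120.5 and 115 CPM in wildtype libraries. The genotypes overlapped in both batches, with log2 fold changes of -0.45 ± 0.39 in batch 2 (edgeR adjusted p = 0.816), -0.16 ± 0.36 in batch 1 and -0.23 ± 0.21 over both. In batch 1, 4 of the 10 genes (S100a11, Anxa1, Crip1 and Ahnak) had a higher mean CPM in KO and a negative fitted fold change, since the fit scales each library by TMM factors. These ran from 0.942 to 1.27 in KO and were 0.837 and 1.06 in wildtype libraries of that batch, against 0.973 to 1.03 in batch 2.

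**Figure D2:**
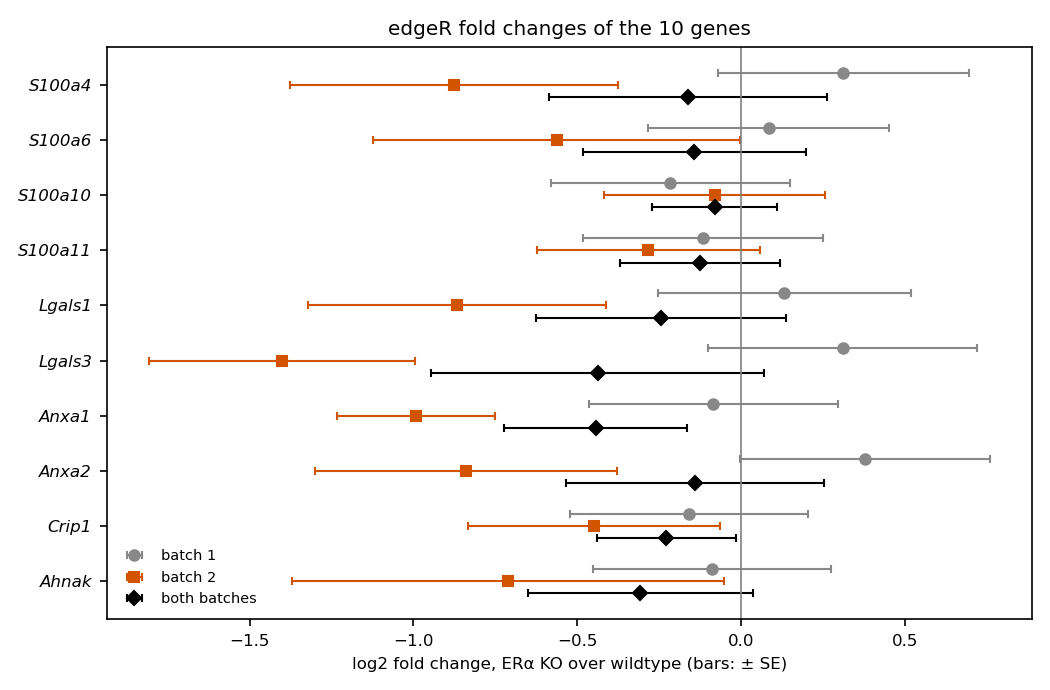
Fitted log2 fold changes of the 10 genes, KO over wildtype (horizontal axis), in batch 1, batch 2 and both batches together, with bars of ± 1 SE. All 10 values of batch 2 and of both batches lie below 0, from -1.40 to -0.08 in batch 2, while those of batch 1 lie from -0.22 to 0.38 on both sides of 0.

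In the fit of both batches, 10 of 10 fold changes were negative, with a median of -0.20, where 48.6% of all genes tested were negative and their median was 0.0090. In batch 2 alone, 10 of 10 were negative with a median of -0.78, against 52.2% and a median of -0.02 over all genes. In batch 1, 5 of 10 were negative with a median of -0.00018, against 46.2% and a median of 0.04. The batch 1 split moved with the scaling of the libraries, to 7 negative with DESeq2 size factors and 3 negative with upper-quartile scaling. The 10 genes vary together between libraries, so such counts are not independent results. The batches entered the joint fit as a term, and the difference between them was tested as an interaction. The batches also differed in depth and in Xist and Ddx3y counts. All batch 2 libraries and KO replicate 3 held Ddx3y counts and little or no Xist, as in male cells. The other batch 1 libraries held Xist and no Ddx3y counts, as in female cells. A genotype difference that changes with batch cannot be told apart from one that changes with depth or with this sex difference. Within batch 1 only KO replicate 3 held Ddx3y counts, so the genotype contrast there includes that difference. The interaction log2 fold change, batch 2 minus batch 1, was negative for 10 of 10 genes, where 61.9% of all tested genes were negative, with a median of -0.94 against -0.19. None of the 10 passed (edgeR adjusted p from 0.591 to 1.00, with 0.00451% of all genes called), 2 had an unadjusted p under 0.05 in edgeR (8.36% of all genes), 5 in DESeq2 (11.4%) and 0 in limma-voom (5.93%). The 2 in edgeR were Lgals3 at -1.91 ± 0.73 and Anxa1 at -1.05 ± 0.44, followed by Anxa2 at -1.38 ± 0.62 and S100a4 at -1.38 ± 0.70.

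The spread between libraries of the same genotype was wide and shared by most of the genes. Wildtype replicate 4 was above wildtype replicate 3 for 10 of 10 genes, with ratios of 1.25 to 3.01 and a median of 2.12. KO replicate 5 was above KO replicate 4 for 10 of 10, with ratios of 1.26 to 1.88 and a median of 1.60. Set across genotypes, KO replicate 5 was below wildtype replicate 4 for 10 of 10 genes but above wildtype replicate 3 for 8 of 10, the exceptions being Lgals3 and Anxa1. KO replicate 4 was below wildtype replicate 4 for 10 of 10 and below wildtype replicate 3 for 8 of 10, all but S100a10 and Crip1. In batch 1, KO replicate 3 was the highest library for 8 of the 10 genes and wildtype replicate 2 the lowest for 6. Over the 4 combinations of genotype and batch, the mean CPM was highest in batch 2 wildtype libraries for 9 of 10 genes and in batch 1 KO libraries for Anxa1. The shares of all genes with these orders of libraries or groups were not counted, so the orders are not shown to be particular to the 10 genes. In bulk samples a smaller share of effector-memory cells and less RNA per cell cannot be told apart.

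**Figure D3:**
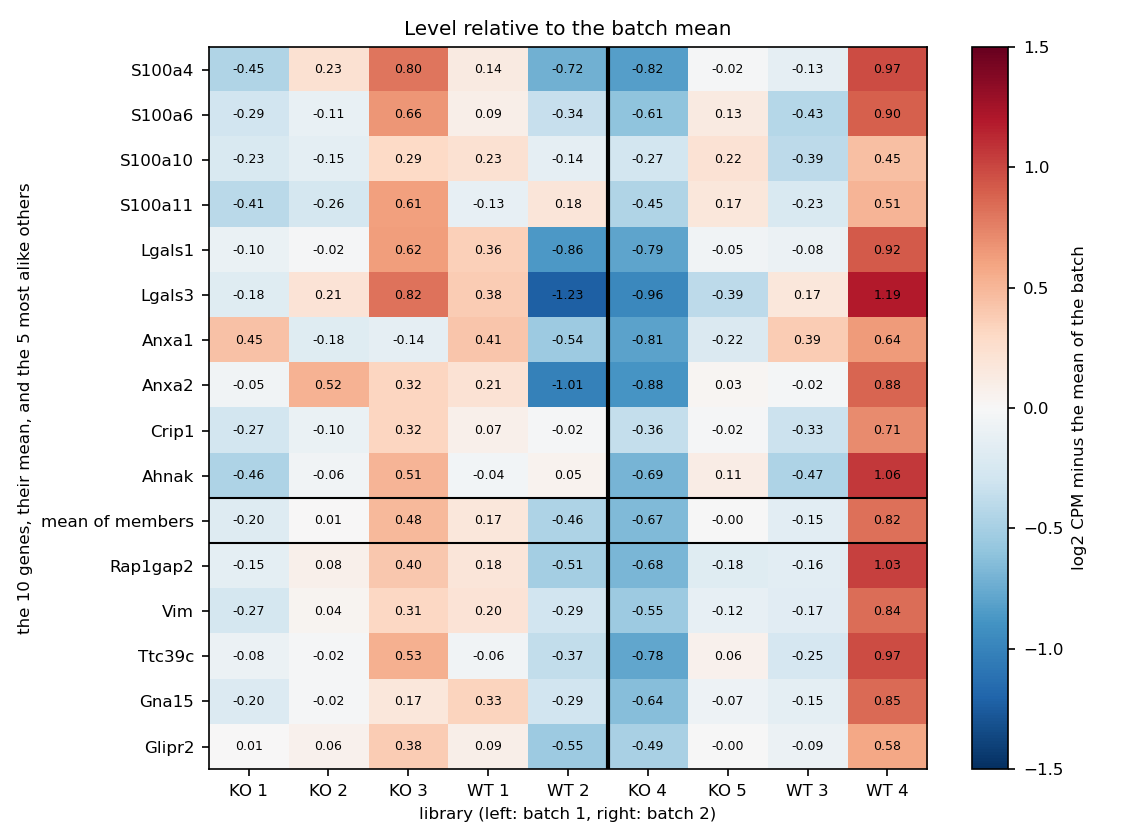
Log2 CPM (TMM-scaled) of each gene minus its mean over the libraries of the batch, for the 10 genes, their mean (row labelled mean of members) and the 5 most alike other genes, with KO left of wildtype within each batch and the values printed in the cells. The mean of the 10 genes was -0.67 and -0.0029 in KO replicates 4 and 5, and -0.15 and 0.82 in wildtype replicates 3 and 4.

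Single libraries set the direction of several of these values. Without wildtype replicate 4, the batch 2 median of the 10 genes was -0.06, with 5 negative and 5 positive, and the median over both batches was 0.08, with 2 negative and 8 positive. Without KO replicate 4, the batch 2 median was -0.41 and the median over both batches 0.0079, with 4 negative and 6 positive. Leaving out KO replicate 5 gave a batch 2 median of -1.22, and leaving out wildtype replicate 3 gave -1.17. In that last fit only wildtype replicate 4 stands for its genotype, and its variation is taken from the KO libraries. There Lgals3 and Crip1 passed (edgeR adjusted p = 0.0206 and 0.0389), among 268 of 16575 genes, or 1.62%. DESeq2 on all 4 libraries of batch 2 called Lgals3 and Anxa1 (adjusted p = 0.0177 and 0.0282) among 329 genes of 15910, or 2.07%. In batch 1 leaving out wildtype replicate 1 gave a median of 0.58, and leaving out wildtype replicate 2 one of -0.33. Without KO replicate 3, the library with Y-linked counts, it was -0.07 in batch 1 and -0.40 over both batches. The interaction median of -0.94 became -0.30 without wildtype replicate 4, with 5 negative and 5 positive, -0.42 without wildtype replicate 2, and -1.44 when wildtype replicate 1 was left out.

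**Figure D4:**
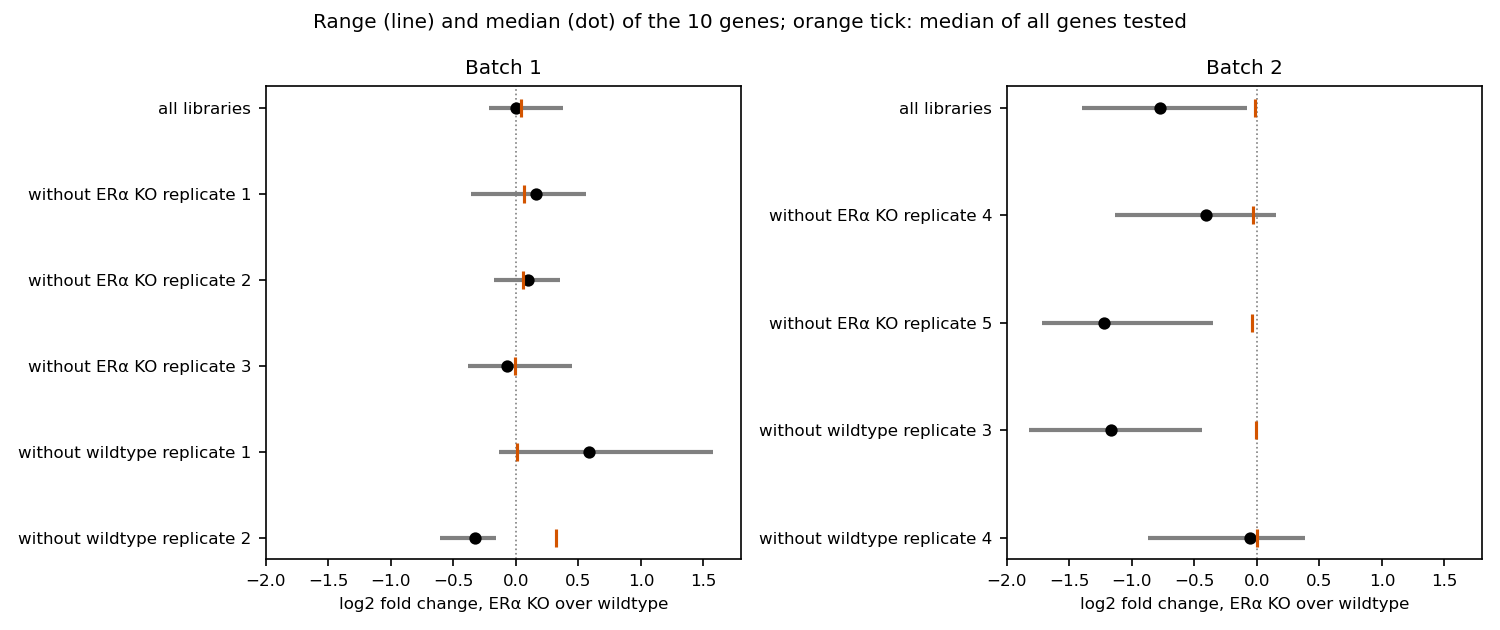
Median (dot) and range (line) of the log2 fold changes of the 10 genes, KO over wildtype, in each batch with all libraries and with each library left out, beside the median of all genes tested (orange tick). In batch 2 the median of the 10 genes was -0.78 with all libraries and -0.06 without wildtype replicate 4.

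Other genes with the family names were taken as lists, which also hold S100pbp and Lgals3bp, binding proteins that are not family members. Of 15 other genes in the S100 list, 6 were tested over both batches and 0 passed, with 4 negative and 2 positive fold changes. S100pbp was one of the positive ones, and had 0.42 ± 0.14 in batch 2 (edgeR adjusted p = 0.625). In batch 2 the neutrophil proteins S100a8 and S100a9 had -3.84 ± 1.22 and -3.75 ± 1.09 (edgeR adjusted p = 0.630 and 0.625). S100a8 stood at 1.99 and 2.54 CPM in KO, against 56.1 and 7.46 CPM in wildtype libraries of batch 2, so it was highest in wildtype replicate 3, where the 10 genes were not. Of 10 other annexins, 7 were tested and 0 passed, with 6 of 7 negative in batch 2. Anxa7 had 31.8 and 34.0 CPM in KO, against 44.6 and 42.7 CPM in wildtype libraries of batch 2, without overlap, and -0.41 ± 0.13 (edgeR adjusted p = 0.625). Of 8 other genes of the galectin list in the table, 5 were tested over both batches and 6 in batch 2, where 3 were negative and 3 positive with a median of -0.14, and 0 passed. Of 13 partners and receptors, among them the annexin A1 receptors Fpr1 and Fpr2, 0 passed in any comparison, with a batch 2 median of 0.11.

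The 10 genes are read as effector-memory genes, so other genes of that state and of naive and dividing cells were set beside them. Of 19 effector-memory surface and trafficking genes, 0 passed in any comparison, and in batch 2, 14 were negative with a median of -0.29. There edgeR counted 1 of the 19 as lower and 1 as higher in KO at an unadjusted p under 0.05. Cd48, a ligand of natural killer and T cell receptors, had -0.65 ± 0.17 and Cxcr6, a chemokine receptor of tissue-homing T cells, -1.07 ± 0.41 in batch 2 (edgeR adjusted p = 0.618 and 0.645). Ly6c1, a surface protein of memory T cells and endothelium, went the other way in batch 2, at 0.64 ± 0.24, and had -1.09 ± 0.36 in batch 1 and an interaction of 1.65 ± 0.32 (edgeR adjusted p = 0.630, 1.00 and 0.451). Cd44, the hyaluronan receptor that marks antigen-experienced cells, had 185 and 241 CPM in KO, against 231 and 407 CPM in wildtype libraries of batch 2, with wildtype replicate 4 again highest. Of 16 cytoskeletal genes, 12 were negative in batch 2 with a median of -0.04, and 1 had an unadjusted edgeR p under 0.05. Lmna, which encodes nuclear lamin A and C, had 14.01 and 17.96 CPM in KO, against 39.6 and 32.9 CPM in wildtype libraries of batch 2, without overlap, and -1.18 ± 0.20 (edgeR adjusted p = 0.618). Of 15 naive cell genes, 14 were positive in batch 2 with a median of 0.38, and 0 passed. At an unadjusted p under 0.05 edgeR counted 7 of the 15, all higher in KO, where 7.77% of all tested genes were counted in either direction. Lef1 and Bach2, transcription factors of naive and resting T cells, had 0.49 ± 0.13 and 0.49 ± 0.12 in batch 2 (edgeR adjusted p = 0.618 for each). Ccr7, a chemokine receptor of naive T cells, stood at 335 and 291 CPM in KO, against 229.9 and 169 CPM in wildtype libraries of batch 2, lowest in wildtype replicate 4. In batch 1, 13 of these 15 genes were negative, with a median of -0.24. Of 18 proliferation genes, 18 were negative in batch 2 with a median of -1.05 and 9 in batch 1 with a median of -0.00095. None passed in either batch, but in batch 2 edgeR counted 16 of the 18 at an unadjusted p under 0.05. All 16 were lower in KO, where 4.97% of all tested genes were counted as lower. Tk1, which encodes thymidine kinase, had -1.29 ± 0.29 in batch 2 (edgeR adjusted p = 0.618). Their summed level was 996 and 1381 CPM in KO, against 3360 and 1952 CPM in wildtype libraries of batch 2. Proliferation thus peaked in wildtype replicate 3 and the 10 genes in wildtype replicate 4.

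**Figure D5:**
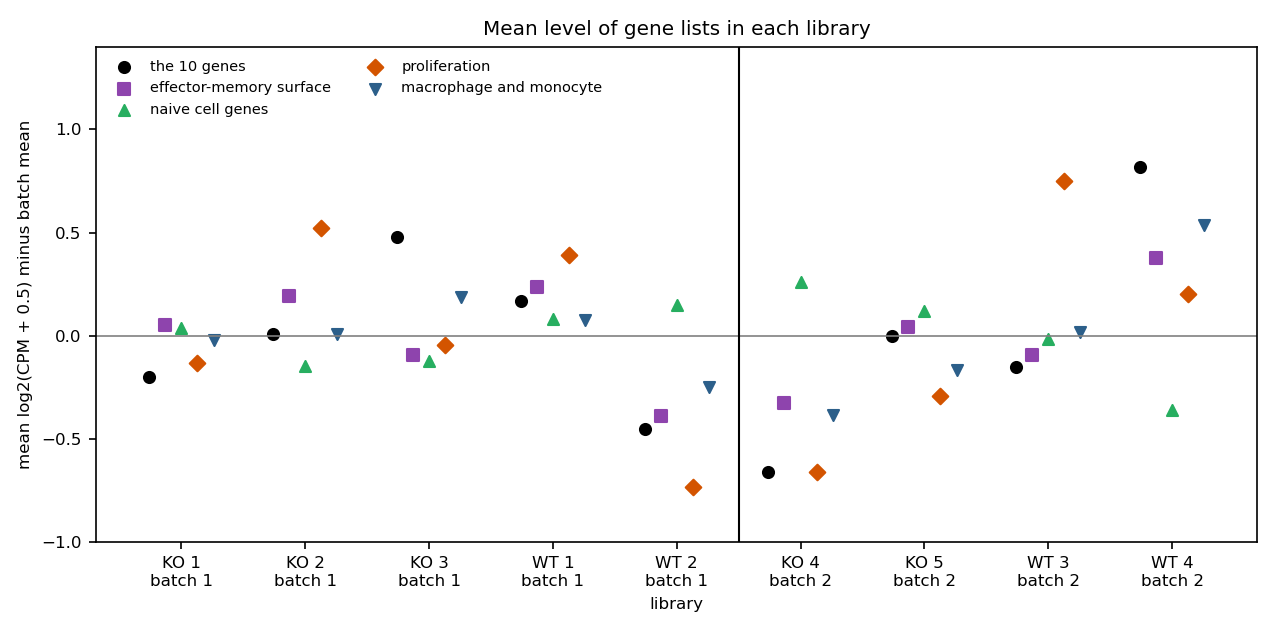
Mean log2(CPM + 0.5), TMM-scaled, minus the batch mean, of the 10 genes and of 4 gene lists in each library, with KO left of wildtype in each batch. In wildtype replicate 4 the 10 genes stood at 0.82, the effector-memory surface list at 0.37, the naive list at -0.36 and the macrophage and monocyte list at 0.54.

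Markers of other cells that carry these transcripts moved in part with them. The 12 macrophage and monocyte markers were all detected in every library, and summed to 107 and 126 CPM in KO, against 133 and 237 CPM in wildtype libraries of batch 2. All 12 had negative fold changes in batch 2, with a median of -0.58, and none passed. C1qa, a complement gene of macrophages, had -0.88 ± 0.39 in batch 2 (edgeR adjusted p = 0.659). Csf1r, the growth factor receptor of macrophages, stood at 27.8 and 27.9 CPM in KO, against 25.1 and 59.0 CPM in wildtype libraries, highest where the 10 genes were highest. Lyz2, another myeloid gene, stood at 6.39 and 4.58 CPM in KO, against 29.7 and 4.87 CPM in wildtype libraries, and so did not follow the 10 genes. In batch 1 the same 12 markers summed to 143 to 199 CPM in KO and to 157 and 76.5 CPM in wildtype libraries, lowest in wildtype replicate 2. Neutrophil markers, 12 genes, summed to 16.2 and 16.9 CPM in KO, against 197 and 30.8 CPM in wildtype libraries of batch 2, with up to 3 of them at 0 counts in a library. In batch 1 they summed to 689 to 1077 CPM in KO, against 939 and 336 CPM in wildtype libraries, lowest in wildtype replicate 2, where 6 of the 10 genes were also lowest. All 12 had positive fold changes in batch 1, with a median of 0.39, while 9 of 10 tested were negative in batch 2, and none passed. Dendritic cell markers, 12 genes, summed to 85.6 and 103 CPM in KO, against 99.5 and 96.5 CPM in wildtype libraries of batch 2, with up to 4 of them at 0 counts in a library. In batch 1 they summed to 114 to 522 CPM in KO, against 193 and 116 CPM in wildtype libraries, and 11 of 11 tested had positive fold changes, with a median of 0.58 and none passing. Red cell and platelet markers, 10 genes, summed to 144 and 132 CPM in KO, against 1829 and 98.6 CPM in wildtype libraries of batch 2. They were thus highest in wildtype replicate 3, which lay above KO replicate 5 only for Lgals3 and Anxa1. In batch 1 they summed to 15.4 to 56.0 CPM in KO, against 58.3 and 13.4 CPM in wildtype libraries. The part of any of these cells in the levels of the 10 genes was not tested.

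Genes outside the list with the most similar pattern were ranked among 8191 genes with at least 10 CPM on average in each batch. Likeness was the root mean square difference, over the 9 libraries, between a gene's batch-centred log2 CPM and the mean of the 10 genes, whose own root mean square was 0.43. The 5 nearest were Rap1gap2 (0.101), Vim (0.104), Ttc39c (0.120), Gna15 (0.133) and Glipr2 (0.135). Of the 10 genes themselves, S100a6 was nearest to their mean (0.142) and Anxa1 farthest (0.379), although each contributes to that mean. Vim, which encodes the intermediate filament vimentin, stood at 418 and 559 CPM in KO, against 527 and 1113 CPM in wildtype libraries of batch 2. Its log2 fold change in batch 2 was -0.73 ± 0.39 (edgeR adjusted p = 0.719).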

How the data were processed

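Gene expression was measured in 9 libraries of CD4+ T cells, for which the authors deposited 1 table holding an estimated count per gene. Per the submitters' processing notes, the tools were Salmon 1.2.0 and R 4.0.3 and the build GRCm39, with no step assigned to any of them. How strand and low genes were handled is not given in the sources. Nonzero values were fractional, and they were rounded to whole numbers. CPM is the count over the library total. The main test was edgeR 4.0.16 in R 4.3.3 on the whole table: robust quasi-likelihood fit, TMM scaling, low-count filter (minimum count 10, minimum total 15), genotype with batch as a term, and genotype alone within each batch. It tested 22197 genes over both batches and for the interaction, 24600 in batch 1 and 15910 in batch 2, with Benjamini-Hochberg adjustment. Standard errors come from the F statistic. The same code was tested on simulated data. DESeq2 1.42.0 and limma 3.58.1 were alternatives. The 10 genes and the lists were chosen with earlier results of these data known. Besides the 10 genes, Esr1 and the 5 most alike genes, the list genes named are from the 3 smallest p of their list in a comparison, and not all of these are named. Cd44, Xist and Ddx3y fall outside that rule and were chosen after their values were seen. The upstream sequences are RefSeq promoters of GRCm38.p6, another build than that of the table. The floor of 3 counts covers counting error only. How reads shared between paralogs were assigned is not stated, so values of near-identical genes are uncertain.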

Additional observations from a re-analysis of the deposited data

Results flagged for a closer look

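Among 20 sets of libraries (10 genes, each in the 5 KO and the 4 wildtype libraries pooled over batches), 1 held a library far from the others, where chance flags about 1 in 20. Ahnak stood at 3208 CPM in wildtype replicate 4, and at 1060.3 to 1152 CPM in the other wildtype libraries.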

How the results depend on the processing

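Of the log2 fold changes of the 10 genes, 80 of 80 values under other settings kept their sign and their side of the threshold over both batches, as did 69 of 80 in batch 1, 68 of 70 in batch 2 and 56 of 60 for the interaction. In batch 2, DESeq2 called 2 of the 10 genes and leaving out single libraries 0 to 2. The signs that turned in batch 1 were S100a6 (-0.079 with DESeq2, -0.078 with DESeq2 size factors in edgeR and -0.078 with the replicate block), Lgals1 (-0.050 with DESeq2 and -0.050 with its size factors), Anxa1 (0.029 with upper-quartile scaling, 0.19 with the replicate block and 0.048 in 1 fit of 4 groups), Ahnak (0.022 with upper-quartile scaling and 0.048 in the fit of 4 groups) and S100a11 (0.020 in that fit). For the interaction, S100a10 turned to 0.042 with upper-quartile scaling, 0.17 without a filter, 0.13 with a filter of 1 CPM in 2 samples and 0.071 with limma-voom. The cause was not tested. The batch 1 median of all genes was 0.04, and -0.08 with DESeq2 size factors, 0.11 with upper-quartile scaling and 0.14 in the fit of 4 groups.

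Over all genes, both batches gave 1 call, against 14 with DESeq2, 2 without a filter and 0 with limma-voom or without a batch term. Batch 1 gave 31, against 56 with DESeq2 size factors, 6 with upper-quartile scaling, 68 without a filter and 3 in the fit of 4 groups. Batch 2 gave 0, against 329 with DESeq2 and 34 without a filter, and 1237 had an unadjusted p under 0.05 in edgeR. The interaction gave 1, against 167 with DESeq2, 2 without a filter and 0 with limma-voom.

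Whether same-numbered libraries pair could not be decided. Correlations of their deviations from the means of genotype and batch were 0.14, -0.24 and -0.18 for numbers 1, 2 and 4. The libraries of number 3 (-0.19) lie in different batches. In a group of 2 libraries the deviations mirror each other, so these values are not independent. The replicate block gave 58 calls in batch 1 and 1 over both batches, 0 of them among the 10 genes, and a median of -0.51 for the 10 genes over both batches. With that block, 3 of the 10 had an unadjusted edgeR p under 0.05 over both batches (1.94% of all genes) and 0 in batch 1 (1.76%). Without the block but also without wildtype replicate 2, 3 of the 10 had one over both batches (5.89%). The replicate block could not be fitted within batch 2 or for the interaction.

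Leaving out each library in turn gave 0 to 3 calls over both batches, 33 to 118 in batch 1, 0 to 879 in batch 2 and 1 to 238 for the interaction. The count of the 10 genes with every KO library below every wildtype library ran from 0 to 3 in batch 1 and from 2 to 10 in batch 2, where 7.28% to 21% and 32.6% to 43.7% of all genes did so. With every KO library above it ran from 0 to 6 and from 0 to 2, where 15.1% to 50.2% and 30.2% to 40.8% of all genes did so. The 6 of 10 above came in batch 1 without wildtype replicate 1 (22.7% of all genes). The 50.2% came without wildtype replicate 2, where 0 of 10 did so. The 10 of 10 below came in batch 2 without wildtype replicate 3 (43.7% of all genes) and 8 of 10 without KO replicate 5 (32.6%). The log2 fold changes that turned ran, in batch 1, from -0.27 to 0.089 for Ahnak, -0.61 to 0.68 for Anxa1, -0.22 to 1.35 for Anxa2, -0.39 to 0.044 for Crip1, -0.48 to 1.07 for Lgals1, -0.37 to 1.57 for Lgals3, -0.55 to 0.15 for S100a10, -0.38 to 0.042 for S100a11, -0.20 to 1.00 for S100a4 and -0.28 to 0.49 for S100a6. In batch 2 they ran from -1.28 to 0.23 for Ahnak, -0.88 to 0.14 for Crip1, -0.44 to 0.38 for S100a10, -0.63 to 0.12 for S100a11 and -1.08 to 0.23 for S100a6. Over both batches they ran from -0.57 to 0.11 for Ahnak, -0.62 to 0.18 for Anxa2, -0.46 to 0.029 for Crip1, -0.73 to 0.083 for Lgals1, -0.32 to 0.084 for S100a10, -0.35 to 0.050 for S100a11, -0.63 to 0.21 for S100a4 and -0.48 to 0.24 for S100a6. For the interaction they ran from -1.24 to 0.19 for Ahnak, -0.76 to 0.18 for Crip1, -0.31 to 0.47 for S100a10, -0.66 to 0.12 for S100a11 and -1.24 to 0.0016 for S100a6.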
